A study of Mus musculus with 12 samples.

Results

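The unfolded protein and integrated stress response genes described here are 37 listed genes of the endoplasmic reticulum (ER) and its stress signalling, taken by symbol from a table of 46095 genes. They fall into 16 chaperones and folding enzymes, 2 genes of the translocon, 7 genes of ER-associated degradation (ERAD), 4 sensors and transcription factors, and 8 genes of the ATF4-CHOP branch. All 37 were in the table, and all 37 were among the 17530 genes that passed the filter on low counts. RNA was sequenced from mouse renal cortex in 3 groups of 4 libraries. DN+NaB is diabetic nephropathy with sodium butyrate, a short-chain fatty acid salt. DN is diabetic nephropathy alone, and NC is the normal control. All libraries come from C57BL/6 mice of 12 weeks. The labels state neither the way in which diabetes was brought about nor how much sodium butyrate was given, by which route or for how long. The design text names 4 mice in each group and no batch, while no label ties a library to 1 animal. A p-value here therefore reflects the spread of these samples only, part of which may be technical.

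Proteins that enter the secretory pathway fold in the ER with the help of chaperones and disulfide isomerases, and those that fail to fold are moved back to the cytosol and degraded by ERAD. When unfolded protein accumulates, membrane sensors respond: Ern1 splices the mRNA of Xbp1, Atf6 is cleaved to a transcription factor, and Eif2ak3 phosphorylates the initiation factor eIF2, which lowers general translation and raises that of Atf4. The eIF2 step is shared with amino acid shortage and other stresses, so the ATF4-CHOP genes also report the integrated stress response. In kidney, proximal tubule cells take up and process large amounts of filtered protein, and ER stress has been studied there in diabetic disease. Counts per gene show neither the splicing of Xbp1, nor the cleavage of Atf6, nor the translation of Atf4.

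Promoters of the members are shown first, since the branches are known for different promoter elements. RefSeq promoter sequences (GRCm38.p6, 250 bases before to 50 bases after the annotated start) matched 32 of the 37 genes, giving 33 promoters because Derl2 has 2 entries. Hyou1, Hspa13, Manf, Derl1 and Atf6 had no entry. Both strands were searched for 4 spelled-out motifs. The ER stress response element (ERSE), the element of Atf6 and Xbp1 in chaperone genes, was searched as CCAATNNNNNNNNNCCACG and was found in 9 of 33 member promoters (27.3%), against 39 of 32851 promoters of all genes (0.119%). Spellings that differ from it in the fixed blocks were not searched. The motifs were searched because genes of these branches are known for them. A share above that of all promoters therefore follows in part from the choice of motifs and members. These are the sites, each read on the strand that carries the motif, with the 2 fixed blocks in capitals. The search set those blocks, so only the spacer, the strand and the position could differ between members.
Hspa5: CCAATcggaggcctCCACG
Calr: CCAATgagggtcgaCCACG
Derl3: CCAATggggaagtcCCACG
Hsp90b1: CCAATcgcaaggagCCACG
Hsp90b1: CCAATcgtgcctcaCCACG
Canx: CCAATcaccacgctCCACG
Pdia6: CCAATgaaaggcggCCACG
Dnajc3: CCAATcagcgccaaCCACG
Creld2: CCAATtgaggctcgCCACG
Syvn1: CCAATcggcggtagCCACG

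Hsp90b1 carried 2 of these sites, 1 on each strand. The related ERSE-II, searched as ATTGG and CCACG with 1 base between them, was found in the promoters of 2 members (6.06%), Herpud1 and Dnajb11, against 0.0365% of all promoters. The C/EBP-ATF response element (CARE), the composite element to which ATF4 binds, was searched as TGATGNAA and was found in 5 members (15.2%), against 3.97% of all promoters. The CARE matches lay in Atf3, Chac1, Trib3 and Asns, all of the ATF4-CHOP branch, and in Herpud1. The unfolded protein response element, searched as TGACGTGG, was found in no member promoter and in 0.676% of all promoters. The searched motifs do not overlap one another in these promoters. A match describes letters and does not show a bound site. The sites of the shorter motifs are these, with the fixed letters in capitals.
Herpud1 ERSE-II: ATTGGgCCACG
Dnajb11 ERSE-II: ATTGGcCCACG
Atf3 CARE: TGATGcAA
Chac1 CARE: TGATGcAA
Trib3 CARE: TGATGtAA
Asns CARE: TGATGaAA
Herpud1 CARE: TGATGcAA

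Whole promoters of 4 members are printed because the values below turn on these genes or because 2 elements meet in 1 promoter. Each reads in the direction of the gene, and capitals mark the fixed letters of the motifs, so a motif on the opposite strand appears as its reverse complement. The Hspa5 promoter (chr2:34771840-34772139, plus strand) holds 1 ERSE close to the start, the Calr promoter (chr8:84846882-84847181, minus strand) holds 1 on the opposite strand, the Chac1 promoter (chr2:119350992-119351291, plus strand) holds a CARE on the opposite strand, and the Herpud1 promoter (chr8:94386179-94386478, plus strand) holds a CARE and, nearer to the start, an ERSE-II.
Hspa5: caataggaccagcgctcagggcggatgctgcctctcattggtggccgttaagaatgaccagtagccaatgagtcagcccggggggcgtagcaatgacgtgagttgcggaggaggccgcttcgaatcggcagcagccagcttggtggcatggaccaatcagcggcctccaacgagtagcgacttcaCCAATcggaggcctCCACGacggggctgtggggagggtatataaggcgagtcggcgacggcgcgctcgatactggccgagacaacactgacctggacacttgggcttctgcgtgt
Calr: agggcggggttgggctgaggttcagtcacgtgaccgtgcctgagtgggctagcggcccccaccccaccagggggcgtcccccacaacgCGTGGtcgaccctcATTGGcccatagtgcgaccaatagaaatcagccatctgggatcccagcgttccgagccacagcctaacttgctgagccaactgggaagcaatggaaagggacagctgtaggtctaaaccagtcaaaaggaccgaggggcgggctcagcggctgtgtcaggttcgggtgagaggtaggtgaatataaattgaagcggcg
Chac1: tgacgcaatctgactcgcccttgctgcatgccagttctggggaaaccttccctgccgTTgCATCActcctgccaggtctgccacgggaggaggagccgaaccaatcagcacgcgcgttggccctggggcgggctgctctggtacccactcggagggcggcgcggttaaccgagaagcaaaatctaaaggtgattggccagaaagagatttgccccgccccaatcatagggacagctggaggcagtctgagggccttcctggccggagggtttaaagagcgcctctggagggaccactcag
Herpud1: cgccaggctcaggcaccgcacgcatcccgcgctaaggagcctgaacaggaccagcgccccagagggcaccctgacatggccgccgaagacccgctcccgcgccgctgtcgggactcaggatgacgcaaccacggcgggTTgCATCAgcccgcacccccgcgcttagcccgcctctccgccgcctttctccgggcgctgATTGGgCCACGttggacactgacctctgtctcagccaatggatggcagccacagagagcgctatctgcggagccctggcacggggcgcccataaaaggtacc

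Library totals were between 58394975 and 70674015 counts. Mitochondrially encoded protein genes took 0.361% to 2.90% of the counts, and the lowest share of each group was 0.518% in DN+NaB 1, 0.361% in DN 3 and 0.494% in NC 1. DN 4 stood apart, with 14915 counts of the tubular injury marker Lcn2 against 140 to 731 counts in the other 11 libraries. Its summed level of 10 injured tubule markers was 3687 CPM, most of it Spp1. The extraction text names prefrontal cortex although the tissue label is renal cortex. The 10 proximal tubule markers summed to 22400.1 CPM or more in every library, and 7 brain markers summed to 17.4 to 27.5 CPM, most of it the myelin gene Mbp. Of these 7, Snap25 was at 0 counts throughout, where a count of 0 allows up to 3 counts in a library, and the neurofilament gene Nefl averaged 2.01 CPM in DN+NaB, 2.79 CPM in DN and 0.309 CPM in NC. Levels are counts scaled to library size (CPM) after scaling by the trimmed mean of M-values (TMM), and log2 fold changes are given ± 1 SE. In RNA from a whole tissue, fewer cells of a type and less RNA per cell cannot be told apart.

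**Figure D1:**
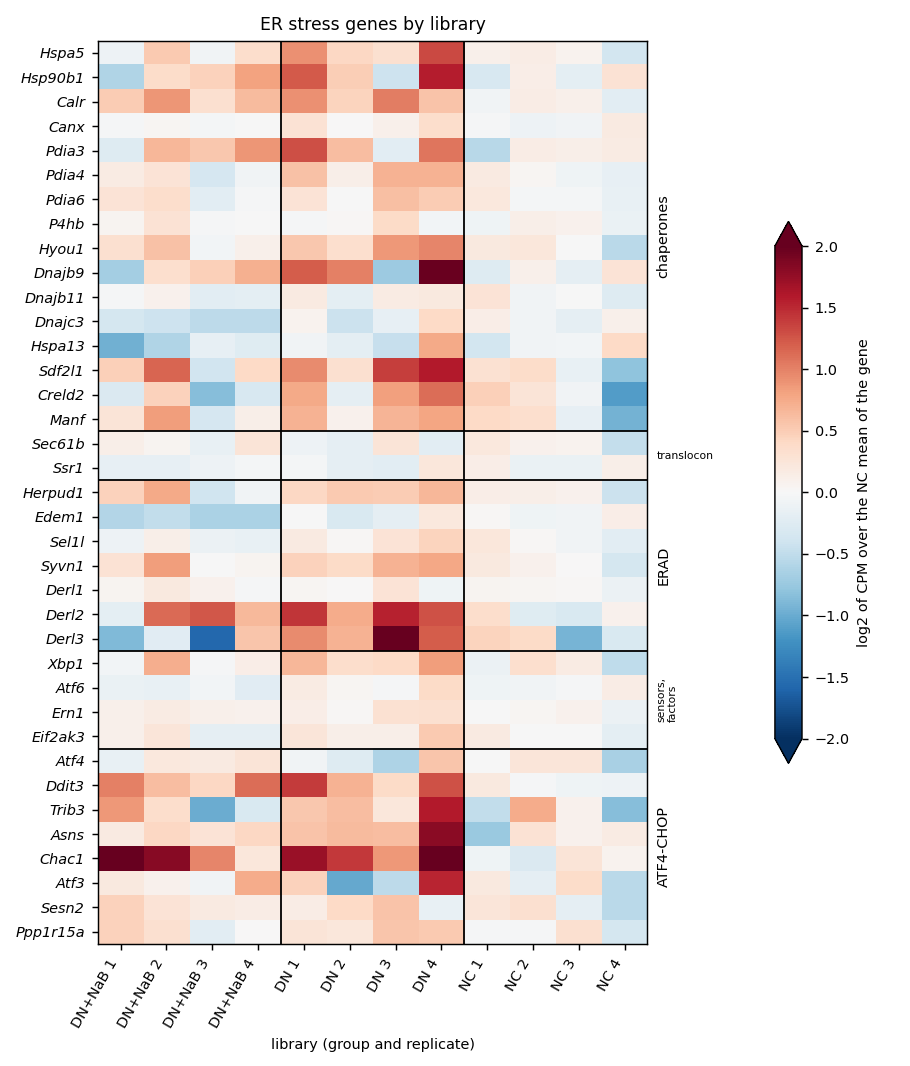
Each row is 1 of the 37 genes and each column 1 library, grouped as DN+NaB, DN and NC, and the colour gives the log2 ratio of the CPM to the mean of the 4 NC libraries of that gene, cut at 2 in either direction. Most rows are warm across the DN columns, with DN 4 the highest DN library in 25 of 37 rows, and NC 4 is the lowest NC library in 24 of 37.

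The comparison of DN with NC asks how these genes stand in the diabetic kidney. Of the 37 members, 8 rose and 0 fell in DN (21.6%), against a background of 3.82% of the 17530 tested genes called higher, 4.42% called lower and 8.23% called in either direction, by edgeR's quasi-likelihood test at an adjusted p of 0.05. The 8 genes were the chaperones Hspa5, Calr, Pdia4 and Hyou1, the ERAD gene Derl2, and the ATF4-CHOP genes Ddit3, Asns and Chac1. Of all members, 33 of 37 had a log2 fold change above 0 (30 of 37 with library sizes alone), where 51.8% of all tested genes did, and their median log2 fold change was 0.53, where that of all genes was 0.013. In 11 members every DN library was above every NC library, which held for 5.86% of the tested genes. At an unadjusted p under 0.05, 18 members were higher and 0 lower, where 10.7% of the genes were higher and 11.2% lower. The count of 8 fell to 3 without NC 1, NC 2, NC 4 or DN 4, each left out alone, and to 2 without NC 3. In these settings 942 to 1976 genes were called, against 1443 with all libraries. The number of estimates above 0 was 33 of 37 with any 1 NC library left out, though not of the same genes throughout. It was 30 of 37 without DN 4. With library sizes alone in place of TMM, 4 members were called, all higher, and the split over all genes moved to 503 higher and 1103 lower, against 669 higher and 774 lower with TMM. DESeq2 called 11 members, all higher, where it called 1031 of all genes higher and 1114 lower.

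**Figure D2:**
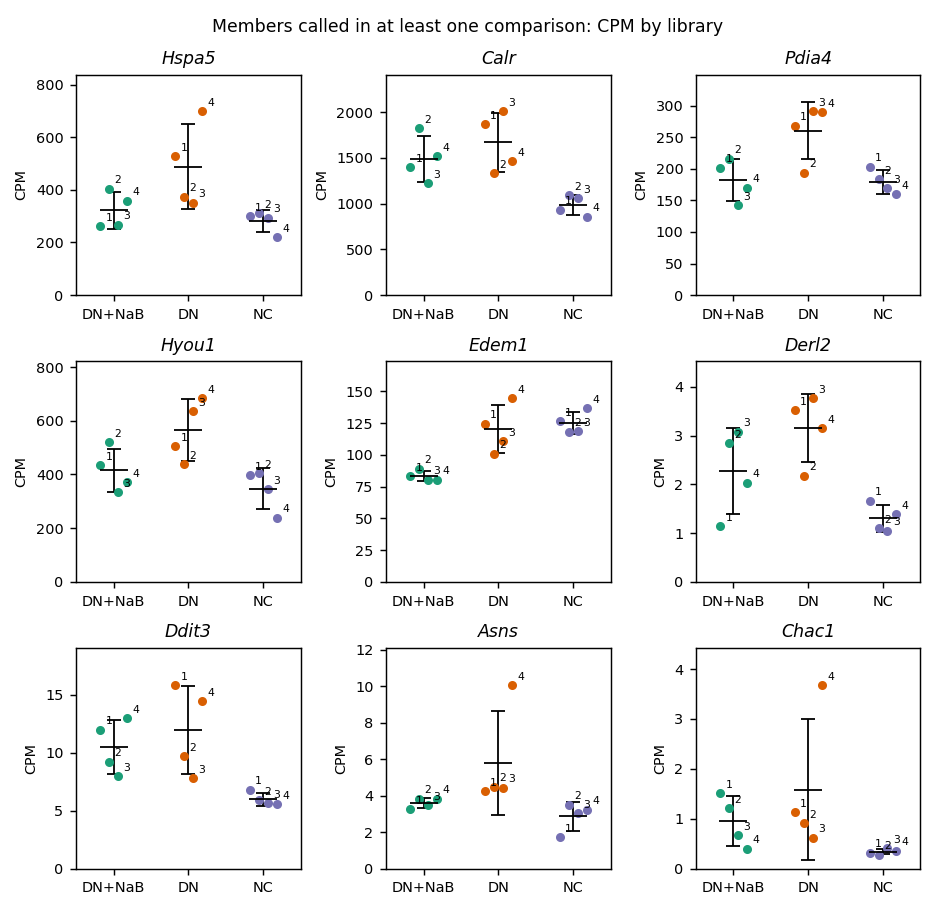
CPM of the 9 members called in at least 1 comparison, 1 panel per gene on a linear axis from 0, with a point per library labelled by its replicate number, in the order DN+NaB, DN and NC; the long bar is the mean and the whiskers are 1 SD (n = 4). DN 4 carries the highest Hspa5, Hyou1, Asns and Chac1 of DN, at 699, 684, 10.1 and 3.68 CPM, and Edem1 is the panel in which DN+NaB lies below both other groups.

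Of the 16 chaperones, 4 rose in DN (25%) and 12 were not called, where 3.82% of all tested genes were called higher. All 16 had a log2 fold change above 0 (median 0.65), though P4hb and Dnajc3 turned below 0 with library sizes alone and Dnajc3 also with upper quartile factors. Their summed level was 5674, 4336, 5458 and 5847 CPM in the 4 DN libraries, against 3634, 3922, 3699 and 3282 CPM in the NC libraries, so every DN library lay above every NC library. Hspa5 encodes BiP, the Hsp70 chaperone that keeps the sensors inactive until unfolded protein draws it away. Hspa5 had 262, 405, 268 and 358 CPM in DN+NaB libraries 1 to 4, 529, 374, 351 and 699 CPM in DN libraries and 301, 311, 294 and 219 CPM in NC libraries. All DN libraries were above all NC libraries, and DN 4 was the highest. Hspa5 rose 1.74-fold in DN against NC (log2 fold change 0.80 ± 0.22 SE, edgeR adjusted p = 0.0369). The call of Hspa5 held in 12 of 22 alternative settings and was lost without NC 1, NC 2, NC 3, NC 4, DN 1 or DN 4, each left out alone (adjusted p = 0.0723 to 0.113). It was also lost with library sizes alone (adjusted p = 0.0723), with no filter (adjusted p = 0.0638) and with the 2 groups alone (adjusted p = 0.0513).

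Calr, calreticulin, the soluble lectin chaperone that binds monoglucosylated glycoproteins, had the highest level per kilobase of exon among the members. Calr had 1396, 1825, 1226 and 1521 CPM in the DN+NaB libraries, 1866, 1336, 2010.4 and 1465 CPM in the DN libraries and 934, 1092, 1060.2 and 855 CPM in the NC libraries. Neither diabetic group overlapped NC. Calr rose 1.69-fold in DN against NC (log2 fold change 0.76 ± 0.16 SE, edgeR adjusted p = 0.00833). The call of Calr held in 21 of 22 alternative settings and was lost without the 3 libraries lowest in mitochondrial share (adjusted p = 0.0817). Its membrane-bound partner Canx, calnexin, had 362, 376, 357 and 364 CPM in the DN+NaB libraries, 451, 372, 393 and 469 CPM in the DN libraries and 362, 343, 349 and 418 CPM in the NC libraries. The Canx groups overlapped, with a log2 fold change of 0.20 ± 0.10, adjusted p = 0.302 in DN.

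Hyou1, a large Hsp70-like protein that exchanges the nucleotide of BiP, had 434, 519.8, 335 and 372 CPM in DN+NaB libraries 1 to 4, 506, 437, 635 and 684 CPM in DN libraries and 398, 405, 346 and 239 CPM in NC libraries. The lowest DN library was above the highest NC library, and NC 4 was well below the other NC libraries. Hyou1 rose 1.63-fold in DN against NC (log2 fold change 0.71 ± 0.19 SE, edgeR adjusted p = 0.0357). The call of Hyou1 held in 13 of 22 alternative settings and was lost without NC 1, NC 3, NC 4, DN 3 or DN 4, each left out alone (adjusted p = 0.0535 to 0.0819). It was also lost with library sizes alone (adjusted p = 0.0585), with the 2 groups alone (adjusted p = 0.0532) and without the 3 libraries lowest in mitochondrial share (adjusted p = 0.121). The disulfide isomerase Pdia4 had 202, 217, 143 and 170.1 CPM in the DN+NaB libraries, 268, 194, 292 and 289.7 CPM in the DN libraries and 204, 184, 169 and 159.7 CPM in the NC libraries. DN 2 lay inside the range of NC, so the groups overlapped. Pdia4 rose 1.46-fold in DN against NC (log2 fold change 0.54 ± 0.15 SE, edgeR adjusted p = 0.0445). The call of Pdia4 held in 8 of 22 alternative settings and was lost without NC 1, NC 2, NC 3, NC 4, DN 1, DN 3, DN 4, DN+NaB 1 or DN+NaB 4, each left out alone (adjusted p = 0.0518 to 0.106). It was also lost with library sizes alone (adjusted p = 0.0933), with upper quartile factors (adjusted p = 0.0530), with the 2 groups alone (adjusted p = 0.0543) and without the 3 libraries lowest in mitochondrial share (adjusted p = 0.120).

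Hsp90b1, Pdia3, Dnajb9 and Sdf2l1 had estimates as large as the called chaperones and did not pass edgeR's test. Hsp90b1, the ER form of Hsp90 known as GRP94, had 102, 200.4, 215 and 272 CPM in DN+NaB libraries 1 to 4, 363, 217, 117 and 462 CPM in DN libraries and 125, 169.8, 136 and 190.4 CPM in NC libraries. Its log2 fold change in DN was 0.90 ± 0.38, adjusted p = 0.196. Pdia3, the isomerase that works with calreticulin and calnexin, had 123, 235, 215 and 271 CPM in the DN+NaB libraries, 362, 225, 128 and 308 CPM in the DN libraries and 100.4, 163, 161 and 165 CPM in the NC libraries. Its log2 fold change in DN was 0.79 ± 0.31, adjusted p = 0.148. Dnajb9, a J-domain partner of BiP that delivers clients to ERAD, had 16.8, 34.01, 37.4 and 44.3 CPM in DN+NaB libraries 1 to 4, 62.4, 54.3, 16.4 and 106 CPM in DN libraries and 22.6, 28.96, 23.9 and 32.5 CPM in NC libraries. Its log2 fold change in DN was 1.15 ± 0.45, adjusted p = 0.157. In all 3 genes DN 3 was the lowest DN library, within or below the range of NC. Without DN 3 all 3 passed the test, with adjusted p = 0.0476 for Hsp90b1, 0.0328 for Pdia3 and 0.0141 for Dnajb9. Sdf2l1, a subunit of an ER chaperone complex with Dnajb11, had 18.6, 30.04, 10.3 and 17.6 CPM in the DN+NaB libraries, 25.8, 16.8, 34.8 and 40.1 CPM in the DN libraries and 16.5, 17.3, 12.05 and 7.67 CPM in the NC libraries. The Sdf2l1 log2 fold change in DN was 1.14 ± 0.35, adjusted p = 0.0691, and without DN 2 its adjusted p was 0.0375. The DESeq2 adjusted p of Sdf2l1 was 0.00760. Exons of Hsp90b1 share 15.7% of their length with other annotated genes, partly on the opposite strand, and the use of strand in the authors' counting is not stated.

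The other chaperones were not called in DN. Manf, a BiP-binding secreted factor, and Creld2, an ER protein induced by ER stress, had log2 fold changes of 0.59 ± 0.30, adjusted p = 0.273, and 0.70 ± 0.36, adjusted p = 0.288. In both, NC 4 was far below the other NC libraries, with 52.2 CPM of Manf and 15.7 CPM of Creld2 against at least 89.9 and 32.3 CPM in NC 1 to NC 3. The isomerases Pdia6 and P4hb had log2 fold changes of 0.36 ± 0.15, adjusted p = 0.177, and 0.10 ± 0.12, adjusted p = 0.723. P4hb spanned 688 to 855 CPM in DN+NaB, 678 to 918 CPM in DN and 641 to 758 CPM in NC. The BiP partners Dnajb11 and Dnajc3 had log2 fold changes of 0.091 ± 0.13, adjusted p = 0.754, and 0.0015 ± 0.15, adjusted p = 0.998. Hspa13, an Hsp70-family protein of the microsomal fraction, spanned 10.6 to 18.5 CPM in DN+NaB, 15.00 to 35.00 CPM in DN and 15.97 to 27.1 CPM in NC, with a log2 fold change in DN of 0.084 ± 0.26, adjusted p = 0.897. The interval of the P4hb difference, -0.17 to 0.36 on the log2 scale at 95% confidence, leaves out a change of the size seen for Calr.

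Neither translocon gene was called in DN. Sec61b, a subunit of the channel through which new chains enter the ER, spanned 17.9 to 23.5 CPM in DN+NaB, 17.1 to 23.5 CPM in DN and 14.2 to 22.8 CPM in NC. Ssr1, a subunit of the associated translocon complex, spanned 61.8 to 67.5 CPM in DN+NaB, 60.1 to 81.5 CPM in DN and 63.3 to 75.8 CPM in NC. In DN against NC their log2 fold changes were -0.044 ± 0.16, adjusted p = 0.916 for Sec61b, and -0.037 ± 0.11, adjusted p = 0.896 for Ssr1. Both 95% intervals included 0, at -0.38 to 0.29 for Sec61b and -0.28 to 0.21 for Ssr1.

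Of the 7 ERAD genes, 1 rose in DN (14.3%), Derl2, and 6 were not called, where 3.82% of all tested genes were called higher. In 4 of the 7 every DN library was above every NC library, which held for 5.86% of all tested genes. The derlins are membrane proteins of the export channel. Derl2 was the lowest member per length of exon and had 1.14, 2.85, 3.08 and 2.04 CPM in DN+NaB libraries 1 to 4, 3.53, 2.18, 3.77 and 3.15 CPM in DN libraries and 1.67, 1.10, 1.05 and 1.39 CPM in NC libraries. These levels rest on 67 to 249 counts per library. Derl2 rose 2.42-fold in DN against NC (log2 fold change 1.28 ± 0.30 SE, edgeR adjusted p = 0.0180). The call of Derl2 held in 20 of 22 alternative settings and was lost without NC 2 (adjusted p = 0.0629) or NC 3 (adjusted p = 0.0643). Its exons share 2.87% of their length with Mis12 on the opposite strand, whose own log2 fold change in DN was 0.81 ± 0.51, adjusted p = 0.395. Derl3 had 0.817, 1.29, 0.510 and 2.21 CPM in the DN+NaB libraries, 2.92, 2.45, 6.04 and 3.52 CPM in the DN libraries and 2.07, 1.97, 0.798 and 1.22 CPM in the NC libraries. The DN libraries were all above the NC libraries, DN 3 most of all, and the Derl3 log2 fold change was 1.30 ± 0.44, edgeR adjusted p = 0.0890 and DESeq2 adjusted p = 0.0244. Derl3 is strongly expressed in secretory cells such as plasma cells. The summed level of 13 plasma and B cell markers was 1.72 to 2.79 CPM in DN against 9.04 to 26.8 CPM in NC, most of the NC sum being Jchain, with Ighm, Igkc and Iglc2 at 0 in every library, and the part of these cells in the Derl3 values was not tested. Derl1, the derlin with the highest level per kilobase of exon, had a log2 fold change in DN of 0.061 ± 0.10, adjusted p = 0.783.

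Herpud1, the scaffold that gathers the ERAD complex, had 958, 1179.7, 527 and 666 CPM in DN+NaB libraries 1 to 4, 926, 1009, 989 and 1108 CPM in DN libraries and 770.0, 761, 743 and 521 CPM in NC libraries. All DN libraries exceeded all NC libraries, and NC 4 was far below the other NC libraries. Its log2 fold change in DN was 0.53 ± 0.21, adjusted p = 0.154. Syvn1, the ubiquitin ligase known as Hrd1, had 118, 173, 96.1 and 101 CPM in the DN+NaB libraries, 134, 125, 157 and 166 CPM in the DN libraries and 111, 103, 97.5 and 75.5 CPM in the NC libraries. The Syvn1 groups did not overlap either, and its log2 fold change in DN was 0.59 ± 0.18, edgeR adjusted p = 0.0614 and DESeq2 adjusted p = 0.0270. Sel1l, the adaptor that holds Syvn1 in its complex, spanned 194 to 232 CPM in DN+NaB, 218 to 291 CPM in DN and 185 to 249 CPM in NC, with a log2 fold change in DN of 0.24 ± 0.12, adjusted p = 0.258. Edem1, which helps to trim and select misfolded glycoproteins, had a log2 fold change in DN of -0.056 ± 0.11, adjusted p = 0.832, the only ERAD estimate below 0 except that Derl1 turned to -0.038 with library sizes alone.

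None of the 4 sensors and transcription factors was called in DN, and all 4 had log2 fold changes above 0. Xbp1, the factor that drives many chaperone and ERAD genes, had 148, 254, 149.9 and 167 CPM in DN+NaB libraries 1 to 4, 242, 196, 202 and 273 CPM in DN libraries and 141, 192, 171 and 107 CPM in NC libraries. The lowest DN library, DN 2, was just above the highest NC library, NC 2, and the log2 fold change was 0.58 ± 0.20, adjusted p = 0.104. Atf6 had 83.1, 81.7, 87.3 and 77.7 CPM in the DN+NaB libraries, 102, 93.00, 89.3 and 118 CPM in the DN libraries and 85.97, 86.9, 89.1 and 101 CPM in the NC libraries. Its groups overlapped in DN against NC, with a log2 fold change of 0.15 ± 0.10, adjusted p = 0.451. Ern1, the Ire1 kinase and nuclease, spanned 46.1 to 48.4 CPM in DN+NaB, 43.8 to 53.9 CPM in DN and 39.7 to 45.8 CPM in NC, with a log2 fold change in DN of 0.20 ± 0.10, adjusted p = 0.252. Eif2ak3, the Perk kinase, spanned 51.6 to 68.9 CPM in DN+NaB, 63.4 to 84.5 CPM in DN and 51.04 to 66.4 CPM in NC, with a log2 fold change in DN of 0.26 ± 0.13, adjusted p = 0.268.

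Of the 8 ATF4-CHOP genes, 3 rose in DN (37.5%) and 5 were not called, where 3.82% of all tested genes were called higher. Ddit3 encodes CHOP, a transcription factor of prolonged ER stress. Ddit3 had 11.96, 9.21, 7.98 and 12.9 CPM in DN+NaB libraries 1 to 4, 15.8, 9.71, 7.78 and 14.4 CPM in DN libraries and 6.83, 5.90, 5.63 and 5.55 CPM in NC libraries. Both diabetic groups lay above NC without overlap. Ddit3 rose 1.998-fold in DN against NC (log2 fold change 0.999 ± 0.22 SE, edgeR adjusted p = 0.0126), and the call held in all 22 alternative settings that were run. Its exons share 4.73% of their length with Mars and Gm4189 on the opposite strand, and Mars itself had a log2 fold change in DN of 0.20 ± 0.12, adjusted p = 0.374.

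Chac1, which degrades glutathione and is a known target of ATF4, had 1.51, 1.21, 0.675 and 0.402 CPM in DN+NaB libraries 1 to 4, 1.13, 0.915, 0.621 and 3.68 CPM in DN libraries and 0.321, 0.279, 0.407 and 0.361 CPM in NC libraries. All DN libraries exceeded all NC libraries, DN 4 by far the most, on 18 to 27 counts per NC library. Chac1 rose 4.62-fold in DN against NC (log2 fold change 2.21 ± 0.55 SE, edgeR adjusted p = 0.0236). Without DN 4 its log2 fold change was 1.36. The call of Chac1 held in 16 of 22 alternative settings and was lost without NC 1, NC 2, NC 3, NC 4 or DN 4, each left out alone (adjusted p = 0.0579 to 0.0750). Asns, asparagine synthetase, had 3.25, 3.84, 3.47 and 3.83 CPM in the DN+NaB libraries, 4.26, 4.49, 4.44 and 10.1 CPM in the DN libraries and 1.71, 3.51, 3.06 and 3.25 CPM in the NC libraries. DN 4 was the highest of the 12 libraries, and the other DN libraries were just above NC. Asns rose 2.02-fold in DN against NC (log2 fold change 1.01 ± 0.29 SE, edgeR adjusted p = 0.0480). Without DN 4 its log2 fold change was 0.59. The call of Asns held in 8 of 22 alternative settings and was lost without NC 1, NC 2, NC 3, NC 4, DN 4, DN+NaB 1, DN+NaB 2, DN+NaB 3 or DN+NaB 4, each left out alone (adjusted p = 0.0568 to 0.142). It was also lost with library sizes alone (adjusted p = 0.0849), with upper quartile factors (adjusted p = 0.0575), with the 1 CPM filter (adjusted p = 0.0592), with the 2 groups alone (adjusted p = 0.102) and without the 3 libraries lowest in mitochondrial share (adjusted p = 0.117). DN 4 also had the highest sums of injured tubule markers, 3687 CPM, and of 10 neutrophil markers, 66.5 CPM, and the part of those cells in these values was not tested.

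Atf4 itself, the factor after which the branch is named, had 77.9, 100.3, 98.6 and 104 CPM in DN+NaB libraries 1 to 4, 82.9, 72.4, 56.7 and 127 CPM in DN libraries and 86.2, 103, 102 and 55.4 CPM in NC libraries. The lowest and the highest DN library enclosed 3 of the NC libraries, and the log2 fold change in DN was -0.034 ± 0.23, adjusted p = 0.961. Trib3, a pseudokinase induced by ATF4 and CHOP, spanned 0.313 to 1.14 CPM in DN+NaB, 0.727 to 1.87 CPM in DN and 0.347 to 1.04 CPM in NC, with a log2 fold change in DN of 0.84 ± 0.46, adjusted p = 0.310. Atf3, a transcription factor of the stress response, spanned 2.17 to 3.83 CPM in DN+NaB, 1.13 to 6.54 CPM in DN and 1.57 to 2.95 CPM in NC, with a log2 fold change in DN of 0.44 ± 0.44, adjusted p = 0.627. Sesn2, a sestrin that restrains growth signalling, spanned 63.4 to 78.5 CPM in DN+NaB, 51.2 to 84.2 CPM in DN and 39.2 to 70.9 CPM in NC, with a log2 fold change in DN of 0.26 ± 0.19, adjusted p = 0.452. Ppp1r15a, the GADD34 subunit that reverses the phosphorylation of eIF2, spanned 15.1 to 24.1 CPM in DN+NaB, 20.5 to 25.9 CPM in DN and 13.7 to 21.8 CPM in NC, with a log2 fold change in DN of 0.40 ± 0.17, adjusted p = 0.185.

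Set against the promoters, 2 of the 9 genes with an ERSE rose in DN, Hspa5 and Calr, and their log2 fold changes ran from 0.0015 for Dnajc3 to 1.30 for Derl3, with a median of 0.70. Of the 23 matched genes without an ERSE, 5 rose, with a median of 0.44. Of the 5 genes with a CARE, 2 rose, Asns and Chac1, with a median of 0.84, and of the 27 without one, 5 rose, with a median of 0.40. Of all tested genes, 3.82% were called higher. Without DN 4 the log2 fold changes of Chac1, Asns and Atf3 were 1.36, 0.59 and -0.24. Those of Trib3 and Herpud1 stayed above 0 with any 1 library left out. A gene without a motif is one with no exact match in the 300 bases searched. No difference between these sets was tested. Syvn1, Creld2, Pdia6, Canx, Dnajc3, Hsp90b1 and Derl3 carry the same fixed ERSE letters as Hspa5 and were not called by edgeR.

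**Figure D3:**
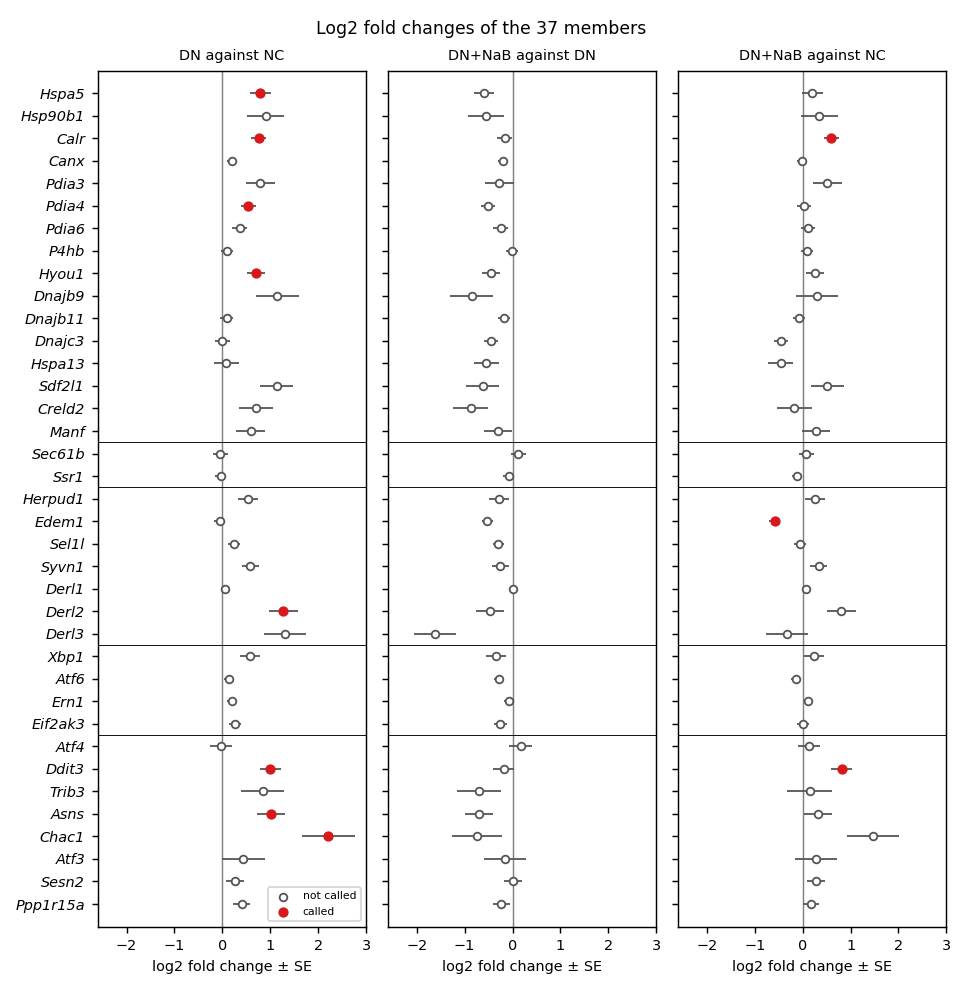
Log2 fold changes of the 37 members with 1 SE, in 3 panels for DN against NC, DN+NaB against DN, and DN+NaB against NC, with called genes filled. With TMM scaling, in the first panel 33 points lie right of 0 and 8 are filled, in the second 33 lie left of 0 and 0 are filled, and in the third 3 are filled, with Edem1 left of 0.

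The comparison of DN+NaB with DN sets the diabetic kidney with sodium butyrate against the diabetic kidney without it. None of the 37 members was called by edgeR, where 4 of 17530 genes were (0.0228%), and 0 to 67 genes were called with 1 library left out, 67 of them without DN 3. DESeq2 called 2 members, Edem1 and Derl3, both lower, of 257 genes. At an unadjusted p under 0.05 edgeR had 10 members lower and 0 higher, where 6.12% of the genes were lower and 3.73% higher. Without DN 4, 4 members and 1331 genes had an unadjusted p under 0.05 in either direction, against 10 and 1726 with all libraries. With any 1 library left out, 4 to 15 members did. The log2 fold change was below 0 for 33 of 37 members (32 of 37 with upper quartile factors or without DN 4), where it was below 0 for 52.8% of all genes. The members' median was -0.29 (-0.21 without DN 4), where that of all genes was -0.019. The DN libraries are in both comparisons, so the directions in the 2 comparisons are not independent. In 4 members every DN+NaB library was below every DN library, namely Edem1, Derl3, Asns and Atf6, which held for 2.44% of the genes.

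Edem1 had 83.3, 89.2, 80.5 and 80.3 CPM in DN+NaB libraries 1 to 4, 125, 101, 111 and 145 CPM in DN libraries and 126, 118, 119 and 137 CPM in NC libraries. The 4 DN+NaB libraries spanned 80.3 to 89.2 CPM, below every other library. The Edem1 log2 fold change in DN+NaB against DN was -0.53 ± 0.11 SE, with an edgeR adjusted p of 0.0981 and a DESeq2 adjusted p of 0.00482. Derl3 had the lowest estimate of the members, with a log2 fold change of -1.62 ± 0.44 SE, an edgeR adjusted p of 0.217 and a DESeq2 adjusted p of 0.0185. For Asns the log2 fold change was -0.69 ± 0.29, adjusted p = 0.465, and for Atf6 it was -0.29 ± 0.10, adjusted p = 0.387.

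Among the chaperones all 16 had log2 fold changes below 0 in DN+NaB against DN, with a median of -0.45 and none called, though P4hb turned above 0 with upper quartile factors. The estimates were -0.59 ± 0.22, adjusted p = 0.392 for Hspa5, -0.51 ± 0.15, adjusted p = 0.270 for Pdia4, -0.46 ± 0.15, adjusted p = 0.321 for Dnajc3, -0.45 ± 0.19, adjusted p = 0.473 for Hyou1 and -0.88 ± 0.36, adjusted p = 0.465 for Creld2. These are the 5 with an unadjusted p under 0.05. The summed chaperone level was 4083, 5220, 3829 and 4478 CPM in DN+NaB, against 5674, 4336, 5458 and 5847 CPM in DN, so the groups overlapped. For Calr the estimate was -0.16 ± 0.16, adjusted p = 0.762, with a 95% interval of -0.50 to 0.18, and for P4hb it was -0.012 ± 0.12, adjusted p = 0.980, with an interval of -0.28 to 0.25.

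The remaining chaperone estimates in DN+NaB against DN ran from -0.85 for Dnajb9 to -0.17 for Dnajb11. In the ERAD branch 6 of 7 were below 0, with -0.30 ± 0.12, adjusted p = 0.441 for Sel1l, -0.28 ± 0.21, adjusted p = 0.693 for Herpud1, -0.25 ± 0.18, adjusted p = 0.671 for Syvn1 and -0.47 ± 0.30, adjusted p = 0.635 for Derl2. The sensor estimates were -0.35 ± 0.20, adjusted p = 0.617 for Xbp1, -0.26 ± 0.13, adjusted p = 0.558 for Eif2ak3 and -0.083 ± 0.10, adjusted p = 0.803 for Ern1. In the ATF4-CHOP branch Ddit3 had -0.18 ± 0.22, adjusted p = 0.810, and its 95% interval of -0.65 to 0.29 included 0. Chac1 had -0.74 ± 0.52, adjusted p = 0.671, and without DN 4 its estimate turned to 0.086. Atf4 and Sesn2 were the branch members above 0, at 0.17 ± 0.23, adjusted p = 0.834, and 0.0077 ± 0.19, adjusted p = 0.992. Trib3 had -0.70 ± 0.46, adjusted p = 0.647, Atf3 -0.17 ± 0.44, adjusted p = 0.919, and Ppp1r15a -0.23 ± 0.17, adjusted p = 0.677. Derl1 was the ERAD gene above 0, at 0.018 ± 0.10, adjusted p = 0.964. The translocon genes stood at 0.12 ± 0.16, adjusted p = 0.821 for Sec61b and -0.083 ± 0.11, adjusted p = 0.831 for Ssr1.

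The comparison of DN+NaB with NC sets the treated diabetic kidney against the normal one. Of the 37 members, 2 rose and 1 fell (8.11%), against a background of 15.6% of genes called, 6.62% higher and 8.94% lower, so the members' share was below that of all genes. Calr rose 1.51-fold (log2 fold change 0.60 ± 0.16 SE, edgeR adjusted p = 0.0200). In DN+NaB the call of Calr held in 18 of 22 alternative settings and was lost without NC 1, NC 4 or DN+NaB 2, each left out alone (adjusted p = 0.0550 to 0.0729). It was also lost without the 3 libraries lowest in mitochondrial share (adjusted p = 0.0584). Ddit3 rose 1.76-fold (log2 fold change 0.82 ± 0.22 SE, edgeR adjusted p = 0.0232). In DN+NaB the call of Ddit3 held in 16 of 22 alternative settings and was lost without NC 2, NC 3, NC 4, DN+NaB 1 or DN+NaB 4, each left out alone (adjusted p = 0.0570 to 0.0754). It was also lost with library sizes alone (adjusted p = 0.0652). Edem1 fell to 83.4 ± 4.15 CPM in DN+NaB, against 125 ± 8.65 CPM in NC (SD, n = 4 each; log2 fold change -0.58 ± 0.11 SE, edgeR adjusted p = 0.00319). The Edem1 call held in all 22 alternative settings. The count of 3 moved to 1 without NC 4 and to 5 without DN 4. The genes called were 2218 without NC 4 and 3716 without DN 4, against 2729 with all libraries. With library sizes alone, the median of all genes moved to -0.12, and 1 member rose and 2 fell.

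The median log2 fold change of the members in DN+NaB against NC was 0.14, where that of all genes was -0.0093, and 27 of 37 were above 0 (22 of 37 with library sizes alone), where 49.2% of all genes were. In the ATF4-CHOP branch all 8 were above 0, with Chac1 at 1.47 ± 0.55, adjusted p = 0.0866, and Asns at 0.32 ± 0.29, adjusted p = 0.494. The remaining 5 of that branch lay between 0.13 for Atf4 and 0.28 for Atf3, and none was called. Dnajc3 had 79.9, 75.8, 70.3 and 70.2 CPM in DN+NaB libraries 1 to 4, 107, 75.2, 90.7 and 134 CPM in DN libraries and 112, 96.3, 89.4 and 109 CPM in NC libraries. Every DN+NaB library was below every NC library, and the Dnajc3 log2 fold change in DN+NaB against NC was -0.45 ± 0.15, adjusted p = 0.0532. Dnajc3 passed the threshold in 10 of the 22 alternative settings. Hspa5 stood at 0.20 ± 0.22, adjusted p = 0.565, Xbp1 at 0.23 ± 0.20, adjusted p = 0.475, Derl2 at 0.80 ± 0.30, adjusted p = 0.0877, and Hyou1 at 0.26 ± 0.19, adjusted p = 0.393. The 95% interval of Hspa5 was -0.26 to 0.66.

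The members differed in which libraries were low within a group. Hsp90b1, Pdia3, Dnajb9 and Hspa13 were lowest in DN+NaB 1, in DN 3 and in NC 1, which are the libraries with the lowest mitochondrial share of each group. This held for 4 of 37 members (10.8%) and for 7.44% of the tested genes, so the members' share was near that of all genes. The 4 genes were picked by being lowest in those libraries, so their low level there follows from the choice. Their median level was 55.0% of the group mean in DN+NaB 1, 44.9% in DN 3 and 78.8% in NC 1. Calr, Pdia4, Pdia6, Hyou1, Dnajb11, Sdf2l1, Creld2, Manf, Syvn1, Atf3 and Ppp1r15a were lowest in DN+NaB 3, DN 2 and NC 4. That order held for 11 of 37 members (29.7%) and for 2.51% of the genes, and it was chosen after the values were seen. The median level of these 11, likewise picked by their lowest libraries, was 78.7% of the group mean in DN+NaB 3, 77.3% in DN 2 and 78.1% in NC 4. DN 4 was the highest DN library for 25 of 37 members (67.6%), where this held for 32.7% of the genes, and NC 4 was the lowest NC library for 24 of 37 (64.9%), where this held for 35.5%. Without the 3 libraries lowest in mitochondrial share, a setting chosen after seeing the data, 7 members and 812 of 17674 genes were called in DN. Of the 7 members, 4 were among the 8, and Hsp90b1, Pdia3 and Dnajb9 were the 3 that were added, with edgeR adjusted p = 0.0305, 0.0114 and 0.00590. These 3 genes were picked above by being lowest in the libraries left out, so their gain follows in part from that choice. The part of the mitochondrial share in these values was not tested.

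**Figure D4:**
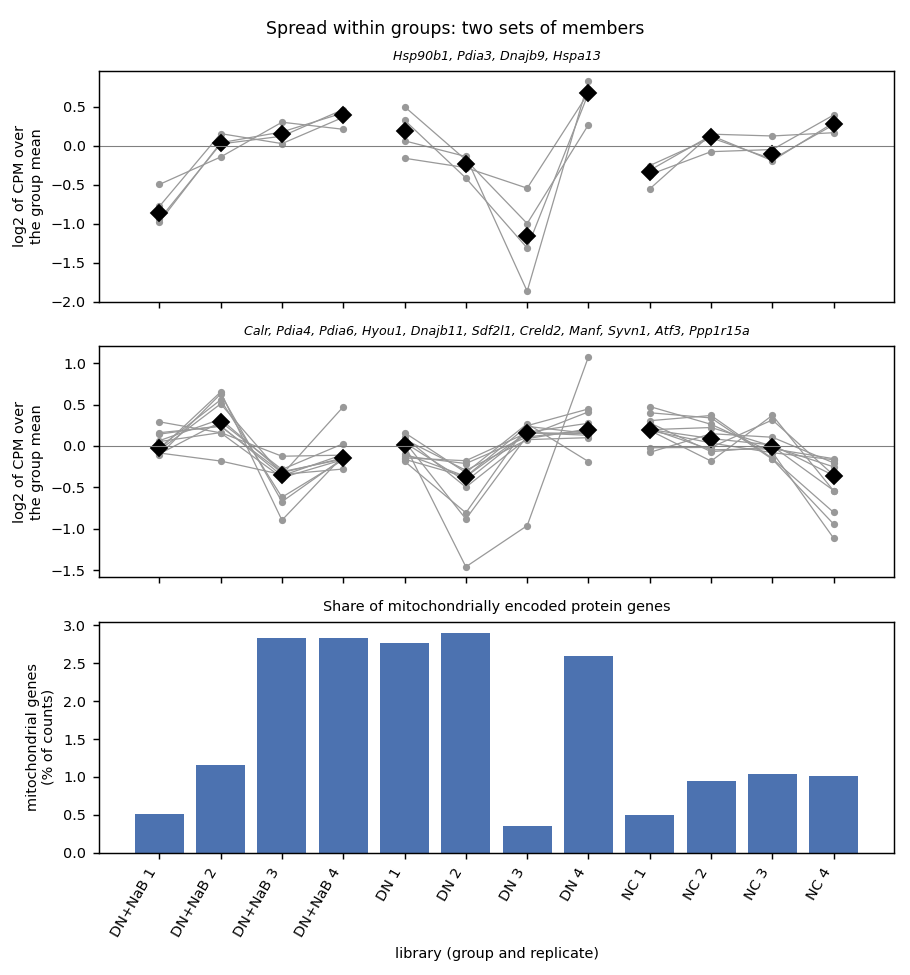
The upper and middle panels give, for the 4 and the 11 members with a common low library, the log2 ratio of CPM to the mean of the library's own group, with 1 grey line per gene and group and a black diamond for the median, and the lower panel gives the percent of counts from mitochondrially encoded protein genes on an axis from 0. The genes of the upper panel were picked by being lowest in DN+NaB 1, DN 3 and NC 1, where the bars are lowest. Those of the middle panel were picked by being lowest in DN+NaB 3, DN 2 and NC 4. The places of the lowest diamonds follow from this choice.

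Levels were compared between genes only per kilobase of exon (GENCODE M21 exon lengths), as mean CPM per kb. The order in DN was led by Calr at 579.6 ± 111, against 342 ± 38.4 in NC (SD, n = 4 each). Herpud1 followed at 432 in DN and 299.5 in NC, P4hb at 262 in DN and 246 in NC, and Hspa5 at 115 in DN and 66.5 in NC. The ATF4-CHOP genes stood lower, with Ddit3 at 6.97 in DN and 3.49 in NC, Asns at 2.13 in DN and 1.05 in NC, and Chac1 at 0.969 in DN and 0.209 in NC. Derl2 was the lowest, at 0.392 in DN and 0.162 in NC.

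Other genes of the same machinery were taken from lists that hold no member. Of all tested genes, 3.82% were called higher in DN and 4.42% lower. The share called higher was near that for folding genes (3.85%), sensors and factors (5%) and ATF4 targets (3.45%). It was 0% for translocation and ERAD genes and 13.3% for the synthetases. Of 26 further tested folding genes, 1 rose in DN and 0 fell, Ero1lb, an ER oxidase, with a log2 fold change of 0.61 ± 0.17, adjusted p = 0.0353. Of 23 further translocon and translocation genes, 0 rose and 1 fell, Srp54a, a signal recognition particle gene, at -2.57 ± 0.55, adjusted p = 0.00948, with 0.125 CPM in DN against 0.749 CPM in NC and near-identical copies among which its reads may be split. Of 24 further ERAD genes, none was called in DN, 0 had an unadjusted p under 0.05, and the smallest p belonged to Erlin2, at -0.23 ± 0.11, adjusted p = 0.247, and Os9, at 0.24 ± 0.12, adjusted p = 0.255. Of 20 further sensors and factors, 1 rose, Creb3l2, a membrane-bound transcription factor, at 0.30 ± 0.084, adjusted p = 0.0399. Of 29 further ATF4 target genes, 1 rose, Slc3a2, the heavy chain of amino acid transporters, at 0.90 ± 0.17, adjusted p = 0.00434. Of 15 aminoacyl-tRNA synthetases, 2 rose, the tryptophan enzyme Wars at 0.73 ± 0.19, adjusted p = 0.0300, and the lysine enzyme Kars at 0.35 ± 0.10, adjusted p = 0.0449. The medians of these lists were between 0.037 and 0.23 on the log2 scale, where that of the 37 members was 0.53. No test of that difference was made.

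In DN+NaB against DN no gene of these lists was called, where 4 of 17530 tested genes were (0.0228%). The smallest p-values, given with the log2 fold change, were those of Ero1lb, at -0.64 ± 0.17, adjusted p = 0.183, and Txndc11, at -0.29 ± 0.13, adjusted p = 0.499, among folding genes, and of Sec11a, at -0.38 ± 0.16, adjusted p = 0.442, and Stt3b, at -0.21 ± 0.092, adjusted p = 0.473, among translocation genes. Among ERAD genes they were Edem3, at -0.45 ± 0.18, adjusted p = 0.438, and Sel1l3, at 0.28 ± 0.13, adjusted p = 0.493. Among sensors they were Ppp1r15b, at -0.38 ± 0.12, adjusted p = 0.277, and Eif2ak1, at 0.14 ± 0.10, adjusted p = 0.662. ATF4 targets had Stc2, at 1.15 ± 0.24, adjusted p = 0.0827, and Cebpg, at -0.54 ± 0.18, adjusted p = 0.317, and the synthetases had Hars, at 0.24 ± 0.10, adjusted p = 0.460, and Cars, at -0.28 ± 0.21, adjusted p = 0.691.

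In DN+NaB against NC, 6.62% of all tested genes were called higher and 8.94% lower. Slc3a2 rose there with a log2 fold change of 1.30 ± 0.17, adjusted p = 2.11e-04, with 694 ± 90.1 CPM in DN+NaB against 282 ± 37.4 CPM in NC (SD, n = 4 each). Among ERAD genes 1 rose and 1 fell: Edem3, of the same family as Edem1, fell with a log2 fold change of -0.70 ± 0.18, adjusted p = 0.0166, and Sel1l3 rose by 0.47 ± 0.13, adjusted p = 0.0220. Of the folding genes 2 rose, the glycan-trimming glucosidase Mogs by 0.43 ± 0.13, adjusted p = 0.0356, and Fkbp11 by 0.73 ± 0.23, adjusted p = 0.0451, and 1 fell, Dnajc10, an ER disulfide reductase that works with Edem1, at -0.54 ± 0.16, adjusted p = 0.0329. The translocation genes, the sensors and the synthetases had 0 calls there, with Srp54a at -1.31 ± 0.51, adjusted p = 0.0990, Sec62 at -0.28 ± 0.13, adjusted p = 0.146, Creb3l2 at 0.24 ± 0.084, adjusted p = 0.0680, Ppp1r15b at -0.25 ± 0.12, adjusted p = 0.170, Gars at 0.33 ± 0.11, adjusted p = 0.0532, and Sars at 0.31 ± 0.11, adjusted p = 0.0684.

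Cell type markers differed between the groups beside these genes. Of all tested genes, 8.23% were called in DN against NC, 0.0228% in DN+NaB against DN and 15.6% in DN+NaB against NC. The 10 injured tubule markers summed to 1433 to 1724 CPM in DN+NaB, 1397 to 3687 CPM in DN and 1008 to 1198 CPM in NC, most of it Spp1 and Clu. Against NC, counted in each comparison apart, 3 of the 10 were called higher in DN and 3 in DN+NaB. Log2 fold changes against NC were below 0 for 1 of the 10 in DN and for 4 in DN+NaB. The 12 macrophage and dendritic cell markers summed to 363 to 1045 CPM in DN+NaB, 1187 to 4262 CPM in DN and 979 to 1348 CPM in NC, most of it Cd74. Of these 12, 8 had log2 fold changes below 0 in DN against NC, with 2 called lower and 0 higher, and Cd74, at 1.64 ± 0.50, adjusted p = 0.0711, was not called. In DN+NaB 8 of the 12 were called lower against NC and 0 against DN. The 12 T and NK cell markers summed to 2.45 to 3.98 CPM in DN+NaB, 6.42 to 21.00 CPM in DN and 17.3 to 31.04 CPM in NC. Of the 10 that were tested, all 10 had log2 fold changes below 0 in DN+NaB against DN, with a median of -2.27, 9 at an unadjusted p under 0.05 and 1 called lower. Against NC, 9 of these 10 were called lower in DN+NaB and 2 in DN. The 8 thick ascending limb markers summed to 5817 to 7353 CPM in DN+NaB, 5652 to 7683 CPM in DN and 8019.6 to 13601 CPM in NC. Proximal tubule markers had 0 of 10 called in DN against NC and 2 of 10 called higher in DN+NaB against NC. The part of cell makeup in the members' values was not tested.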

How the data were processed

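RNA-seq libraries of renal cortex were compared in 3 groups of 4. The table deposited by the authors holds raw counts, 1 row per gene symbol. Per the submitters' processing notes HISAT2 2.0.4 was among the tools. The program that made the counts, its handling of strand, the gene models and the build were not given in the sources used here. Library totals were 58394975 to 70674015 counts, which gave a median SE of 0.17 for log2 fold changes of genes above 1 CPM. From the counts, edgeR 4.0.16 (R 4.3.3) with TMM factors, filterByExpr by group (minimum count 10) and the robust quasi-likelihood test was fitted over all 12 libraries, with no block, in 3 comparisons. P-values were two-sided and Benjamini-Hochberg adjusted over 17530 genes, with calls at 0.05. SE is the size of the log2 fold change over the root of F. Scripts were tested on simulated data.

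The members and lists were chosen with earlier results of these data known. Every member is named. Of other lists, up to 4 called genes, or the 2 with the smallest p, are named per comparison. Mis12, Mars and Lcn2 were chosen after their values were seen. Alternatives were other scaling factors, filters, DESeq2 1.42.0, no robust estimation, 2 groups alone, a replicate block, each library left out and, added after seeing the data, the 3 libraries lowest in mitochondrial share left out. Replicate numbers are shared by the groups, and no label says what they mark. No pair of libraries agreed within sampling noise (smallest chi-square per degree of freedom 25.0). Exon lengths came from GENCODE M21 and promoters from RefSeq GRCm38.p6.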

Additional observations from a re-analysis of the deposited data

Results flagged for a closer look

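Of 111 member and group combinations, 7 held a library whose gap to the nearest other library passed Dixon's 95% critical value for 4 samples (0.829 of the range), where chance flags about 1 group in 20. Pdia3 had 100 CPM in NC 1, where the other libraries of the group had 161 to 165 CPM. P4hb had 918 CPM in DN 3, where the other libraries of the group had 678 to 716 CPM. Dnajb11 had 48.7 CPM in DN 2, where the other libraries of the group had 62.9 to 64 CPM. Herpud1 had 521 CPM in NC 4, where the other libraries of the group had 743 to 770 CPM. Sel1l had 232 CPM in DN+NaB 2, where the other libraries of the group had 194 to 200 CPM. Asns had 10.1 CPM in DN 4, where the other libraries of the group had 4.26 to 4.49 CPM. Chac1 had 3.68 CPM in DN 4, where the other libraries of the group had 0.621 to 1.13 CPM. The 2 genes in DN 4, Asns and Chac1, are both called higher in DN, and their values without it are given above. No explanation was tested.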

How the results depend on the processing

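Over 22 alternatives, 2270 of 2439 member values kept their direction and side of the threshold, 66 lost the call, 32 gained it and 71 changed sign, none of them called after the change. For DN against NC the members called were 4 with library sizes alone, 4 with the replicate block, 5 with the 2 groups alone, and 2 to 9 with 1 library left out. DESeq2 called 11 members there, all higher, namely the 8 of edgeR and Sdf2l1, Syvn1 and Derl3. The genes called were 1606 with library sizes alone, 1416 with the replicate block and 1054 with the 2 groups alone, against 1443 in the fit reported. They were 942 to 1976 with 1 library left out, 2145 with DESeq2 and 812 without the 3 libraries lowest in mitochondrial share. For DN+NaB against DN, DESeq2 called 2 members and every other alternative 0; the genes called, 4 in the fit reported, were 22 with RLE factors, 26 with library sizes alone, 27 with no filter, 17 with the 1 CPM filter, 7 with the replicate block, 0 with the 2 groups alone, 257 with DESeq2, 8 without the 3 libraries, and 0 to 67 with 1 library left out, the 67 without DN 3. For DN+NaB against NC the members called were 5 with the 2 groups alone, 6 with DESeq2 and 1 to 5 with 1 library left out. The genes called there were 3966, 3560 and 1833 to 3716 in the same order, against 2729 in the fit reported. Library sizes alone gave 875 genes higher and 2070 lower, against 1161 and 1568 with TMM. The replicate block pairs libraries by number. The deviations of same-numbered libraries from their group means correlated at 0.20 to 0.27 for number 4 and 0.054 to 0.12 for number 2 and had both signs for numbers 1 and 3 (-0.25 to 0.27 over 12 pairs), so not every pair was above 0.1 and the numbers were not taken to pair the samples, and 5 of 12 libraries correlated best with their own number. In DN against NC the block ended the calls of Hspa5 (adjusted p = 0.0748), Pdia4 (0.0610), Hyou1 (0.0632) and Chac1 (0.0682), which the counts of settings in the text include. The log2 fold changes that changed sign, with the cause not tested, were as follows. For DN against NC they were P4hb -0.0025, Dnajc3 -0.084, Derl1 -0.038 with library sizes alone, Dnajc3 -0.033 with upper quartile factors, Dnajc3 -0.0084 with no filter, Dnajc3 -0.020 with the 1 CPM filter, Dnajc3 -0.014 with the replicate block, and P4hb -0.043, Atf4 0.11, Ssr1 0.060 without the 3 libraries. For DN+NaB against DN they were P4hb 0.010 with upper quartile factors, Atf3 0.013 with the replicate block and P4hb 0.11 without the 3 libraries. For DN+NaB against NC they were Pdia4 -0.086, P4hb -0.028, Derl1 -0.034, Eif2ak3 -0.11, Sec61b -0.028 with library sizes alone, Eif2ak3 -0.0080 with upper quartile factors, Eif2ak3 -0.012 with no filter, Pdia4 -0.0086, Eif2ak3 -0.031 with the 1 CPM filter, and Dnajb11 0.0079, Creld2 0.065, Sel1l 0.040, Derl3 0.015, Trib3 -0.34 without the 3 libraries. With 1 library left out, the ranges of those that changed sign were, for DN against NC, Atf3 -0.24 to 0.72, Atf4 -0.31 to 0.12, Derl1 -0.014 to 0.088, Dnajc3 -0.18 to 0.12, Edem1 -0.18 to 0.021, Hspa13 -0.25 to 0.24, P4hb -0.015 to 0.13, Sec61b -0.19 to 0.024, Ssr1 -0.16 to 0.017. For DN+NaB against DN they were Atf3 -0.44 to 0.50, Chac1 -1.06 to 0.086, Derl1 -0.025 to 0.095, P4hb -0.086 to 0.10, Sesn2 -0.10 to 0.13, Ssr1 -0.13 to 0.022. For DN+NaB against NC they were Atf4 -0.042 to 0.23, Canx -0.047 to 0.042, Creld2 -0.46 to 0.026, Dnajb11 -0.17 to 0.019, Eif2ak3 -0.078 to 0.065, Pdia4 -0.062 to 0.13, Sec61b -0.064 to 0.15, Sel1l -0.13 to 0.020, Trib3 -0.21 to 0.49. The SE in DN against NC was 0.30 or more for Chac1, Trib3, Derl2, Derl3 and Atf3, with 18 to 405 counts in a library, and also for Hsp90b1, Pdia3, Dnajb9, Sdf2l1 and Creld2, with 553 to 28618 counts, and the part of depth in it was not tested.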

Other observations

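Chaperones of other compartments were examined beside those of the ER. Of 20 cytosolic heat shock genes, 2 rose in DN against NC (10%) and 0 fell, where 3.82% of all tested genes were called higher and 4.42% lower. The 2 genes are named next. They were the small heat shock genes Hspb8, with a log2 fold change of 1.09 ± 0.19, adjusted p = 0.00252 by edgeR, and Hspb1, at 2.02 ± 0.54, adjusted p = 0.0420. Hspb1 averaged 71.8 ± 40.3 CPM in DN and 17.7 ± 5.63 CPM in NC (SD, n = 4 each). In DN+NaB against DN none of the 20 was called, with Dnajb1 at 0.55 ± 0.19, adjusted p = 0.340, and Cryab at -0.43 ± 0.19, adjusted p = 0.488. In DN+NaB against NC 2 of the 20 rose (10%), where 6.62% of all tested genes were called higher. On the log2 scale Hspb8 rose by 0.74 ± 0.19, adjusted p = 0.0177, and Dnajb1, an Hsp40 co-chaperone, by 0.60 ± 0.19, adjusted p = 0.0434.

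Of 12 mitochondrial chaperones and proteases, none was called in DN against NC, with Hspd1 at -0.22 ± 0.093, adjusted p = 0.182, and Htra2 at 0.28 ± 0.14, adjusted p = 0.270. In DN+NaB against DN none was called either, with Clpx, the unfoldase of a matrix protease, at 0.45 ± 0.11, adjusted p = 0.167, and Spg7 at 0.21 ± 0.13, adjusted p = 0.621. In DN+NaB against NC 1 of the 12 rose (8.33%), Clpx, by 0.45 ± 0.11, adjusted p = 0.0138, where 6.62% of all tested genes were called higher.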
